A study of Mus musculus with 20 samples.

Results

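The genes followed here are 8 components of the Nodal and activin signalling pathway, chosen by symbol from the gene column of the count tables, where they are 8 of 23361 entries. They are the ligands Nodal and Gdf3, the co-receptor Tdgf1, the receptor Acvr2b, the secreted inhibitors Lefty1 and Lefty2, and the intracellular inhibitors Skil and Smad7. Each was followed over 5 stages of the conversion of mouse embryonic stem cells to epiblast stem cells (EpiSCs), the primed pluripotent state of the post-implantation epiblast. Stranded mRNA libraries came from PGK cells, which are female, and E14 cells, which are male. With 1 line of each sex, sex and line cannot be told apart. Cells in 2i, a medium with inhibitors that holds them in the naive state, were the day 0 samples. Titles of the diff3 day 0 libraries name 2i, while their cell type label reads as the conversion, and the titles were followed. At days 4, 10, 19 to 23 and 27 to 30 the cells had been in N2B27 medium with activin A and Fgf2 on fibronectin, per the labels. No group was grown without activin A after day 0, and activin A, Fgf2, the loss of 2i and time in culture cannot be told apart. Each line and stage has 2 libraries, from the differentiation experiments diff2 and diff3, which gives 10 groups and 20 libraries.

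Nodal and activin are secreted ligands of the TGF-beta family that bind type I and type II serine/threonine kinase receptors, and the activated receptors phosphorylate Smad2 and Smad3, which enter the nucleus with Smad4. Nodal, but not activin, needs an EGF-CFC co-receptor such as Tdgf1 (Cripto), and Lefty proteins block Nodal outside the cell. Several inhibitors are themselves targets of the pathway, which makes it a negative feedback system. In the early mouse embryo Nodal signalling maintains the epiblast and patterns the anterior visceral endoderm and the primitive streak, and EpiSCs are grown in activin for this reason.

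Lefty1 and Lefty2 are paralogues, and the results below turn on telling their reads apart, so a stretch of their coding sequences is shown where they differ most. In GENCODE M21 (GRCm38) Lefty2 lies at chr1:180893108-180899103 and Lefty1 at chr1:180935022-180938400, both on the plus strand and 35918 bases apart. Their coding sequences have 1104 bases each and 91.85% identity, and the longest identical run is 140 bases. Of the 1055 stretches of 50 bases in the Lefty1 coding sequence, 281 (26.64%) also occur in that of Lefty2. The lines below give coding bases 35 to 124, counted from the start codon, with the 27 differing bases of the 90 in capitals.
Lefty1: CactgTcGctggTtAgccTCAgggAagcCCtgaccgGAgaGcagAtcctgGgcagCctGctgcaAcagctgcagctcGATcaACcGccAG
Lefty2: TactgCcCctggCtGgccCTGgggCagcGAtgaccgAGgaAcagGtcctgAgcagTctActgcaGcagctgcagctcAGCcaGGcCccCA
Reads that fall in shared stretches could be split between them, and how the authors' counting treated such reads is not given in the sources used here.

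Library totals lay between 2020254 and 26936415 counts. The E14 diff3 experiment held both shallow libraries, that of day 0 (3376500 counts) and that of day 4 (2020254 counts), while the other 18 had at least 11847559. At days 27 to 30 the 6 naive pluripotency markers summed to 20.4 to 25.4 CPM (the count of a gene scaled to the library total) in PGK, against 3007 to 3782 CPM at day 0, and to 20.7 to 40.7 CPM in E14, against 3722 to 4720 CPM at day 0. The 6 primed markers summed to 1678 to 1682 CPM in PGK, against 110 to 134 CPM at day 0, and to 1416 to 2025 CPM in E14, against 67.9 to 82 CPM at day 0. The labelled states thus carried the marker RNAs of both lists. The 3 shared pluripotency markers, Pou5f1, Sox2 and Nanog, were lower late. In PGK they summed to 566 to 688 CPM at days 27 to 30, against 2522 to 2546 CPM at day 0. In E14 they summed to 739 to 743 CPM, against 2382 to 3240 CPM at day 0. The replicates of E14 day 0 were the least alike, with r = 0.912 across genes on log2 CPM, and the other groups lay at 0.964 to 0.992. Titles of the 6 diff2 libraries of days 0, 4 and 10 hold a code, used here as a covariate in an alternative fit.

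In the first 4 days after 2i, Lefty1 and Skil rose in both lines. In PGK, 2 of the 8 genes were higher at day 4 than at day 0 and none lower, at an adjusted p under 0.05 in edgeR's quasi-likelihood test with Benjamini-Hochberg adjustment over all genes, where 14.8% of all genes tested were called. In E14 it was likewise 2 of 8, both higher, against 9.56% of all genes. The median log2 fold change of the 8 was −0.04 in PGK, where that of all genes was −0.01, and −0.20 in E14, where that of all genes was 0.15. Since RNA was taken from whole cultures, fewer cells of a type and less RNA per cell cannot be told apart. The labels do not say whether the libraries of a group came from separate cultures beyond the experiment name, so p-values measure the spread between these libraries.

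By days 27 to 30, 5 of the 8 genes differed from day 0 in each line. In PGK, Lefty1 and Skil were higher and Gdf3, Tdgf1 and Lefty2 lower, against 25.1% of all genes called. In E14, Lefty1 and Skil were higher and Gdf3, Tdgf1 and Smad7 lower, against 13.7% of all genes. Nodal and Acvr2b were not called in these comparisons in either line. The median log2 fold change was −0.30 over the 8 genes in PGK, against −0.06 over all genes, and −0.39 in E14, against 0.19 over all genes. Both the day 4 and the late comparison use the day 0 libraries, so they are not independent of each other.

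**Figure D1:**
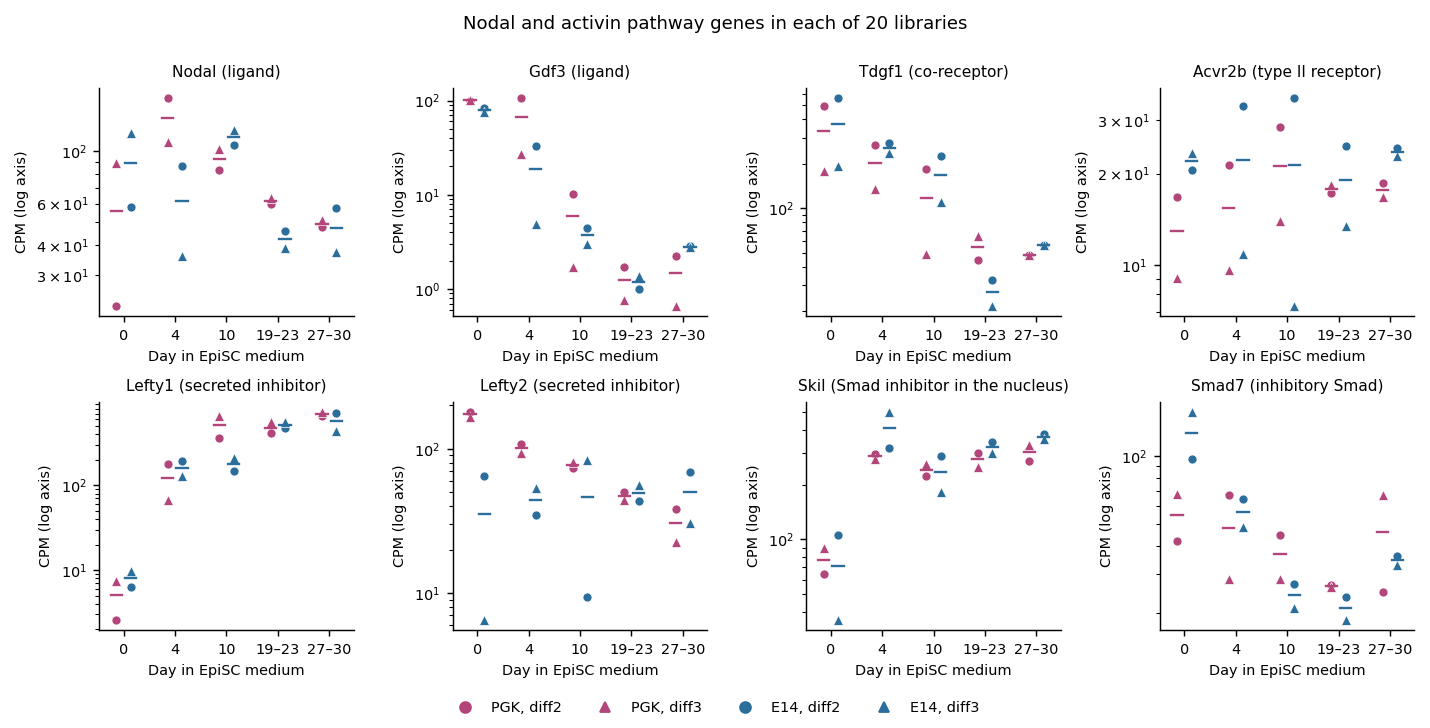
CPM of each gene on a log axis by day in EpiSC medium, with a circle for each diff2 library, a triangle for each diff3 library and a bar at the mean of 2 libraries, PGK left of E14. Lefty1 lies at 434 to 732 CPM in the 4 libraries of days 27 to 30, against 2.6 to 9.77 CPM in the 4 day 0 libraries, while Gdf3 lies at 0.66 to 2.84 CPM at days 27 to 30, against 76.1 to 101 CPM at day 0.

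Nodal, the ligand that gives the pathway its name (chr10:61417972-61425338, plus strand), was present at every stage and passed the edgeR test on all libraries in neither line. In PGK its level in diff2 and diff3 was 22.2 and 89.3 CPM at day 0, 167 and 109 CPM on day 4, 82.8 and 102 CPM at day 10, 60 and 63.1 CPM at days 19 to 23, and 47.8 and 51 CPM at days 27 to 30. In E14 it was 58.2 and 119 CPM, 86.4 and 36.1 CPM, 106 and 123 CPM, 46 and 38.8 CPM, and 57.4 and 37.5 CPM over the same stages. Both PGK day 4 libraries lay above both PGK day 0 libraries, whereas in E14 the day 4 and day 0 libraries overlapped. The log2 fold change of day 4 over day 0 was 1.24 ± 0.50 (SE) in PGK, with adjusted p = 0.129, and −0.47 ± 0.48 in E14, with adjusted p = 0.59. The PGK value rests on its day 0 libraries, which differ 4-fold: it was 2.60 with adjusted p = 0.00113 without the diff3 library of day 0. Here and below, a fit without a library leaves 1 library in its group, which is assumed to vary like the other groups. The late value, days 27 to 30 over day 0, was −0.26 ± 0.49 in PGK (adjusted p = 0.728), but 1.08 without day 0 diff3 (adjusted p = 0.0327) and −0.94 without day 0 diff2 (adjusted p = 0.0447). In E14 it was −0.88 ± 0.48 (adjusted p = 0.254).

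Gdf3, a ligand related to Nodal that is known from undifferentiated stem cells (chr6:122605403-122610087, minus strand), fell furthest of the 8 genes. PGK libraries had 99.5 and 101 CPM at day 0, 106 and 27.3 CPM on day 4, 10.2 and 1.71 CPM at day 10, 1.73 and 0.76 CPM at days 19 to 23, and 2.26 and 0.66 CPM at days 27 to 30. E14 libraries had 82.6 and 76.1 CPM, 32.8 and 4.95 CPM, 4.49 and 3.01 CPM, 1 and 1.38 CPM, and 2.84 and 2.77 CPM at the same 5 stages. The libraries of days 27 to 30 thus lay far below those of day 0 in both lines, with no overlap. The log2 fold change of days 27 to 30 over day 0 was −6.16 ± 1.02 in PGK (adjusted p = 0.00189) and −4.83 ± 0.87 in E14 (adjusted p = 0.0058). The PGK value was −7.30 without the diff2 library and −5.55 without the diff3 library of days 27 to 30, and the E14 call was lost without either late E14 library, with adjusted p = 0.0579 and 0.0638. At day 4 the E14 libraries already lay below both day 0 libraries, but the log2 fold change of −2.01 ± 0.77 did not pass (adjusted p = 0.134). It passed in DESeq2 (adjusted p = 0.0276). Without day 4 diff2 it was −3.97, which rests at day 4 on the shallow library alone, with 10 counts of Gdf3. In PGK at day 4 it was −0.66 ± 0.80 (adjusted p = 0.642), and the diff2 library had not dropped.

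Tdgf1, an EGF-CFC co-receptor for Nodal (chr9:110939603-110946158, minus strand), fell in both lines. In PGK its levels in diff2 and diff3 were 494 and 178 CPM at day 0, 270 and 135 CPM on day 4, 184 and 49 CPM at day 10, 44.2 and 65 CPM at days 19 to 23, and 48 and 48 CPM at days 27 to 30. In E14 they were 558 and 193 CPM, 279 and 236 CPM, 227 and 110 CPM, 32.6 and 21.7 CPM, and 56.6 and 56.4 CPM at the same 5 stages. At days 0 and 10 the diff2 library was more than 2-fold above the diff3 library in both lines, while at days 27 to 30 the libraries of a line were nearly equal. Between days 27 to 30 and day 0 the log2 fold change was −2.89 ± 0.64 in PGK (adjusted p = 0.00913) and −2.76 ± 0.54 in E14 (adjusted p = 0.0081). In PGK the call was lost without day 0 diff2, where the value was −1.97 (adjusted p = 0.0729), without either late library (adjusted p = 0.0597 and 0.0707), and with no filter on low counts (adjusted p = 0.0767). With a term for the library code it was −1.99 in PGK (adjusted p = 0.000243) and −2.11 in E14 (adjusted p = 0.0109). In E14 the value was −1.72 without day 0 diff2 and −3.35 without day 0 diff3, and the call was lost without either late library (adjusted p = 0.0597 and 0.0611). Reads of Tdgf1 may also match its processed pseudogene Tdgf1-ps1, whose transcript has 98.83% identity to the Tdgf1 coding sequence, so its level is uncertain to that extent.

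Smad complexes bind short sites in regulatory DNA, often beside Foxh1. RefSeq windows of 250 bases upstream of the start (GRCm38.p6) matched 3 of the 8 genes, Nodal, Tdgf1 and Acvr2b, and were searched on both strands for CAGAC, the Smad motif, and AATCCAC, the Foxh1 motif. CAGAC occurred once each in the Tdgf1 and Acvr2b windows and not in that of Nodal, and 42.2% of all 32851 promoter windows hold it. AATCCAC occurred in none of the 3, and 2.1% of all windows hold it. The Tdgf1 window, at chr9:110946159-110946408 on the minus strand, is shown because its gene fell in both lines, with the match in capitals starting 113 bases before the transcript start.
Tdgf1: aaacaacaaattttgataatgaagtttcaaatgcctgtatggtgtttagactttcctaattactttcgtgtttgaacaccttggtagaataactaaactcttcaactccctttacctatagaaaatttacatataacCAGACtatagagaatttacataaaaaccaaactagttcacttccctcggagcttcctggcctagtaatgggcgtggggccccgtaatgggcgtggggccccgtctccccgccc
A match is a sequence description only.

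Acvr2b, a type II receptor for Nodal, activin and related ligands (chr9:119402118-119434995, plus strand, with an annotated antisense gene inside it), showed no called change. In PGK it had 16.8 and 9.07 CPM at day 0, 21.3 and 9.59 CPM on day 4, 28.5 and 14 CPM at day 10, 17.3 and 18.3 CPM at days 19 to 23, and 18.7 and 16.7 CPM at days 27 to 30. Acvr2b in E14 was at 20.5 and 23.4 CPM, 33.4 and 10.9 CPM, 35.5 and 7.32 CPM, 24.7 and 13.4 CPM, and 24.3 and 22.8 CPM at the same 5 stages. At days 4 and 10 the diff2 library was more than 2-fold above the diff3 library in both lines, so the stages overlapped. The log2 fold change of day 4 over day 0 was 0.19 ± 0.50 in PGK (adjusted p = 0.848) and 0.07 ± 0.77 in E14 (adjusted p = 0.975), and that of days 27 to 30 over day 0 was 0.38 ± 0.50 in PGK (adjusted p = 0.611) and 0.10 ± 0.77 in E14 (adjusted p = 0.946). Each SE is larger than its log2 fold change.

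Lefty1, a secreted inhibitor of Nodal and a known target of its signal, showed the largest rise of the 8 genes. In PGK it had 2.6 and 7.48 CPM at day 0, 178 and 67.1 CPM on day 4, 366 and 659 CPM at day 10, 409 and 551 CPM at days 19 to 23, and 654 and 732 CPM at days 27 to 30. Lefty1 in E14 was at 6.27 and 9.77 CPM, 192 and 130 CPM, 147 and 212 CPM, 476 and 555 CPM, and 720 and 434 CPM at the same 5 stages. Every library from day 4 on lay above every day 0 library in both lines, and in E14 the days 4 and 10 formed a plateau below the later stages. The log2 fold change of day 4 over day 0 was 4.49 ± 0.59 in PGK (adjusted p = 0.000821), a 22.5-fold rise, and 4.40 ± 0.45 in E14 (adjusted p = 0.000592), a 21.1-fold rise. For days 27 to 30 over day 0 it was 6.98 ± 0.66 in PGK (adjusted p = 8.97e-05) and 6.21 ± 0.49 in E14 (adjusted p = 0.000125). These 4 calls held under every alternative run, although in PGK the day 4 value was 3.68 without day 4 diff2 and 5.52 without day 0 diff3, and the late value was 7.98 without day 0 diff3.

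Markers of several other cell types moved with Lefty1, those of endoderm among them. The 4 markers of anterior visceral endoderm, Cer1, Hhex, Dkk1 and Lhx1, summed to 690 to 725 CPM at days 27 to 30 in PGK, against 8.52 to 10.3 CPM at day 0, and to 593 to 989 CPM in E14, against 6.22 to 13.7 CPM at day 0, where Dkk1 had no count. All 4 of 4 were higher in both lines. The 6 definitive endoderm markers, Sox17, Foxa2, Cxcr4, Gata6, Foxa1 and Gsc, summed to 288 to 341 CPM in PGK, against 22 to 37.3 CPM at day 0, and to 278 to 358 CPM in E14, against 11.9 to 17.8 CPM at day 0, with none at 0. Of these, 4 of 6 were higher in PGK and 5 of 6 in E14. The 6 extraembryonic endoderm markers summed to 649 to 675 CPM in PGK, against 368 to 458 CPM at day 0. In E14 they summed to 498 to 532 CPM, against 242 to 275 CPM at day 0. Of the 4 extraembryonic endoderm markers that could be tested, none was called in either line. At day 4 in E14, with Lefty1 already at 192 and 130 CPM, the anterior visceral endoderm markers summed to 3.53 to 11.9 CPM and the definitive endoderm markers to 1.25 to 11.4 CPM, overlapping with and below the day 0 values of these lists. In PGK at day 4 the sums were 6.45 to 66 CPM, with 2 of 4 anterior visceral endoderm markers called higher than at day 0, and 8.91 to 57.8 CPM, with 2 of 6 definitive endoderm markers called higher. The 6 primitive streak and mesoderm markers summed to 125 to 840 CPM at day 4 in PGK, with 4 of 6 called higher, and to 226 to 253 CPM at days 27 to 30, again with 4 of 6, against 6.74 to 19.3 CPM at day 0. In E14 they summed to 22.3 to 39.4 CPM at day 4, with 1 of 6 called higher, and to 234 to 268 CPM at days 27 to 30, with 4 of 6, against 14.2 to 22.2 CPM at day 0, where Mixl1 and Mesp1 had no count. The 6 fibroblast and feeder markers summed at days 27 to 30 to 210 to 229 CPM in PGK, with 4 of 6 called higher, against 6.41 to 23.1 CPM at day 0, where Col3a1 and Acta2 had no count. In E14 they summed to 237 to 383 CPM, with 3 of 6 called higher, against 0 to 17.9 CPM at day 0. The 5 neuroectoderm markers summed at days 27 to 30 to 509 to 529 CPM in PGK, against 32.8 to 52.4 CPM at day 0. In E14 they summed to 440 to 453 CPM, against 37.1 to 63.1 CPM at day 0. Of the testable neuroectoderm markers 1 of 4 was called higher in each line at days 27 to 30. The 6 trophoblast markers summed then to 382 to 460 CPM in PGK, against 100 to 101 CPM at day 0. In E14 they summed to 290 to 430 CPM, against 91.6 to 183 CPM at day 0. Of the testable trophoblast markers 1 of 5 was called higher and 1 lower in PGK, and 2 of 6 higher and 1 lower in E14. Of all genes tested, 25.1% in PGK and 13.7% in E14 were called in either direction for days 27 to 30 over day 0. For day 4 over day 0 these shares were 14.8% in PGK and 9.56% in E14. The part of any of these cell types in the level of Lefty1 was not tested.

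Lefty2, the second secreted inhibitor, fell in PGK, where Lefty1 rose, while in E14 its replicates were too far apart to tell its course. Lefty2 in PGK was at 180 and 166 CPM at day 0, 108 and 94 CPM on day 4, 73.2 and 81 CPM at day 10, 50.3 and 44.2 CPM at days 19 to 23, and 38.3 and 22.6 CPM at days 27 to 30. Lefty2 in E14 was at 64.6 and 6.52 CPM, 34.9 and 53.5 CPM, 9.4 and 83.8 CPM, 43.2 and 55.9 CPM, and 69.3 and 30.4 CPM at the same 5 stages. The PGK values stepped down at each stage with no overlap between neighbouring stages, whereas the E14 replicates at days 0 and 10 each spanned most of the values of the other E14 stages. In PGK the log2 fold change of days 27 to 30 over day 0 was −2.58 ± 0.28 (adjusted p = 0.000171), a call that held under every alternative run. That of day 4 over day 0 in PGK was −0.84 ± 0.26 and just missed the threshold (adjusted p = 0.0575). It passed with the replicate block (adjusted p = 0.0365), with a term for the library code (adjusted p = 0.0248) and in DESeq2 (adjusted p = 0.016). In E14 the values were 0.27 ± 1.04 for day 4 over day 0 (adjusted p = 0.91) and 0.43 ± 1.03 for days 27 to 30 over day 0 (adjusted p = 0.818). Without both shallow libraries they were −0.89 (adjusted p = 0.773) and −0.40 (adjusted p = 0.819).

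The opposite courses in PGK exchanged the leading Lefty gene. Lefty1 made up 1.43% of the summed Lefty1 and Lefty2 counts in diff2 and 4.31% in diff3 at day 0 in PGK, 62.3% and 41.6% at day 4, 83.3% and 89% at day 10, 89% and 92.6% at days 19 to 23, and 94.5% and 97% at days 27 to 30. In E14 it was 8.84% and 60% at day 0, 84.6% and 70.8% at day 4, 94% and 71.7% at day 10, 91.7% and 90.9% at days 19 to 23, and 91.2% and 93.5% at days 27 to 30. The E14 day 0 library with 60% is the shallow one, where the share rests on 33 Lefty1 and 22 Lefty2 counts and has a 95% Wilson interval of 46.8% to 71.9%. In the deeper E14 day 0 library it rests on 84 and 866 counts, with an interval of 7.2% to 10.8%. Lefty1 thus held most of the Lefty reads in every library from day 10 on, while Lefty2 held most in both PGK libraries of day 0. The intervals cover counting error only, and the shares are of reads, not corrected for transcript length.

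**Figure D2:**
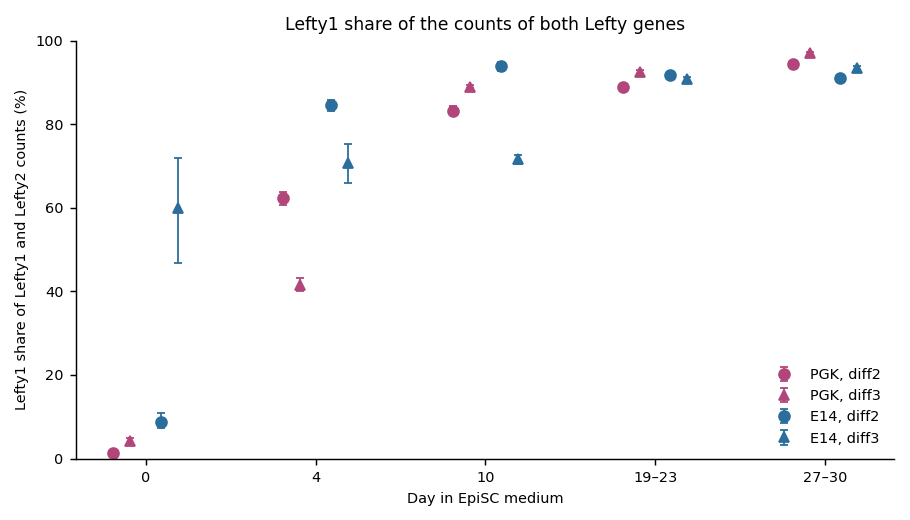
Lefty1 counts as a percentage of the counts of both Lefty genes, per library, by day in EpiSC medium, with bars for the 95% Wilson interval and PGK left of E14. PGK libraries lie at 94.5% and 97% at days 27 to 30, against 1.43% and 4.31% at day 0, and the shallow E14 day 0 library stands apart at 60%.

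Skil (SnoN), a nuclear co-repressor that binds Smad2, Smad3 and Smad4 (chr3:31095058-31122577, plus strand), rose by day 4, and no later step was called. Skil in PGK was at 64.5 and 89.6 CPM at day 0, 295 and 278 CPM on day 4, 222 and 259 CPM at day 10, 300 and 251 CPM at days 19 to 23, and 271 and 332 CPM at days 27 to 30. Skil in E14 was at 106 and 36.1 CPM, 319 and 502 CPM, 288 and 182 CPM, 343 and 300 CPM, and 380 and 356 CPM at the same 5 stages. All libraries from day 4 on lay above all day 0 libraries in both lines, and no library after day 4 fell back to the day 0 range. The log2 fold change of day 4 over day 0 was 1.83 ± 0.23 in PGK (adjusted p = 0.000687), a 3.55-fold rise, and 2.52 ± 0.50 in E14 (adjusted p = 0.012), a 5.73-fold rise. For days 27 to 30 over day 0 it was 1.89 ± 0.23 in PGK (adjusted p = 0.000383) and 2.33 ± 0.50 in E14 (adjusted p = 0.0135). The PGK calls held under every alternative run. In E14 the day 4 call was lost without day 4 diff3, where the value was 2.16 (adjusted p = 0.0934), and without both shallow libraries, where it was 1.59 (adjusted p = 0.0679), and the value was 3.60 without day 0 diff2 and 1.92 without day 0 diff3. The late E14 value was 3.40 without day 0 diff2 and 1.74 without day 0 diff3, and its call was lost without the late diff2 library (adjusted p = 0.0545).

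Smad7, an inhibitory Smad that acts at the activated receptor (chr18:75367529-75395935, plus strand), fell in E14 by days 27 to 30 and was not called in PGK. In PGK it had 42 and 67.8 CPM at day 0, 67 and 28.3 CPM on day 4, 44.5 and 28.5 CPM at day 10, 26.6 and 26.2 CPM at days 19 to 23, and 24.8 and 66.8 CPM at days 27 to 30. Smad7 in E14 was at 97 and 157 CPM, 64.2 and 48.5 CPM, 26.9 and 21.1 CPM, 23.5 and 18.7 CPM, and 36.1 and 32.9 CPM at the same 5 stages. The E14 groups of day 0, day 4 and day 10 did not overlap, while the PGK day 0 and late libraries did. The log2 fold change of days 27 to 30 over day 0 was −1.87 ± 0.39 in E14 (adjusted p = 0.012) and −0.34 ± 0.51 in PGK (adjusted p = 0.658). The E14 call was lost without either late library (adjusted p = 0.0995 and 0.143). At day 4 the value was −0.28 ± 0.51 in PGK (adjusted p = 0.776) and −1.12 ± 0.39 in E14 (adjusted p = 0.0994). The E14 value passed in DESeq2 (adjusted p = 0.0259). Without day 0 diff2, which leaves the shallow library alone in its group, the E14 value was −1.38.

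**Figure D3:**
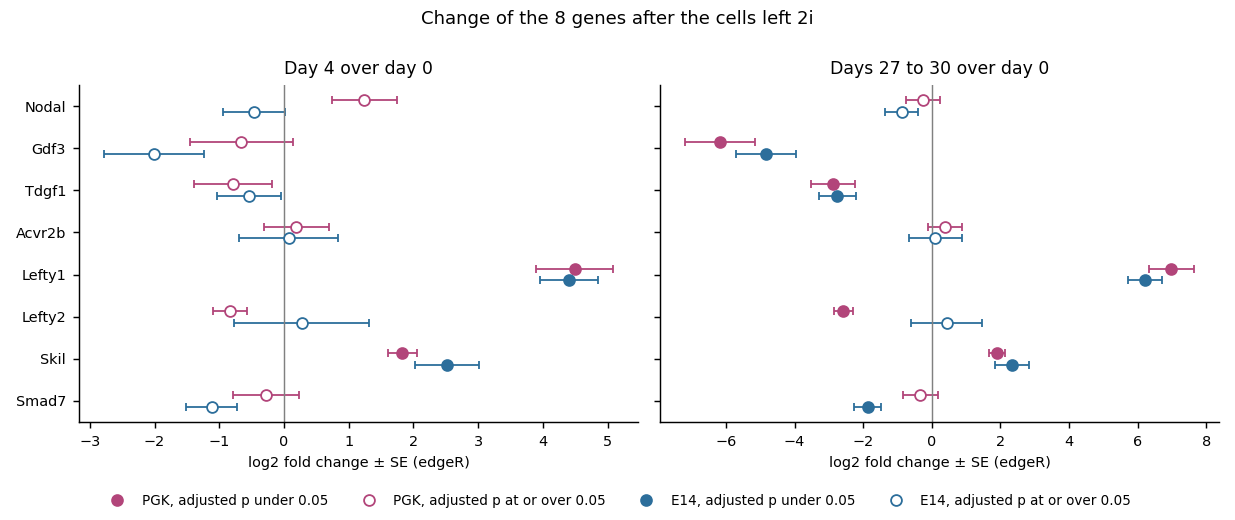
Log2 fold changes with their SE from edgeR for day 4 over day 0 (left) and days 27 to 30 over day 0 (right), PGK above E14 within each gene, with filled points for adjusted p under 0.05. Lefty1 stands at 4.49 in PGK and 4.40 in E14 at day 4 and at 6.98 in PGK and 6.21 in E14 at days 27 to 30, and Gdf3 at −6.16 in PGK and −4.83 in E14 at days 27 to 30.

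Expressed per kilobase of exon (CPM per kilobase of the GENCODE M21 exon union, RPKM), the leading gene changed from Tdgf1 to Lefty1. At day 0 Tdgf1 stood first, with 128 ± 85.1 RPKM in PGK and 143 ± 98.6 RPKM in E14 (SD, n = 2), and Lefty1 had the lowest mean, with 2.87 ± 1.96 RPKM in PGK and 4.56 ± 1.41 RPKM in E14, overlapping in both lines with Acvr2b at 3.29 ± 1.39 RPKM in PGK and 5.59 ± 0.519 RPKM in E14. In PGK the Tdgf1 libraries overlapped with those of Lefty2, at 66.2 ± 3.69 RPKM, while in E14 they lay apart from the next gene, Nodal, at 42.4 ± 20.6 RPKM. At day 4 Tdgf1 and Lefty1 overlapped at the top in both lines, with 77.4 ± 36.4 and 69.7 ± 44.6 RPKM in PGK and 98.1 ± 11.7 and 91.6 ± 25.2 RPKM in E14. From day 10 on Lefty1 stood first, apart from the next gene in every group except E14 day 10, where it had 102 ± 25.9 RPKM and overlapped with Tdgf1 at 64.2 ± 31.5 RPKM. At days 27 to 30 Lefty1 reached 394 ± 31.2 RPKM in PGK and 328 ± 115 RPKM in E14, and Skil came next with 31.1 ± 4.49 RPKM in PGK and 38 ± 1.77 RPKM in E14. Nodal followed with 23.6 ± 1.09 RPKM in PGK and 22.6 ± 6.72 RPKM in E14, and in E14 it overlapped with Tdgf1 at 21.6 ± 0.0564 RPKM. Gdf3 was last at these stages, with 0.603 ± 0.467 RPKM in PGK and 1.16 ± 0.0199 RPKM in E14.

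**Figure D4:**
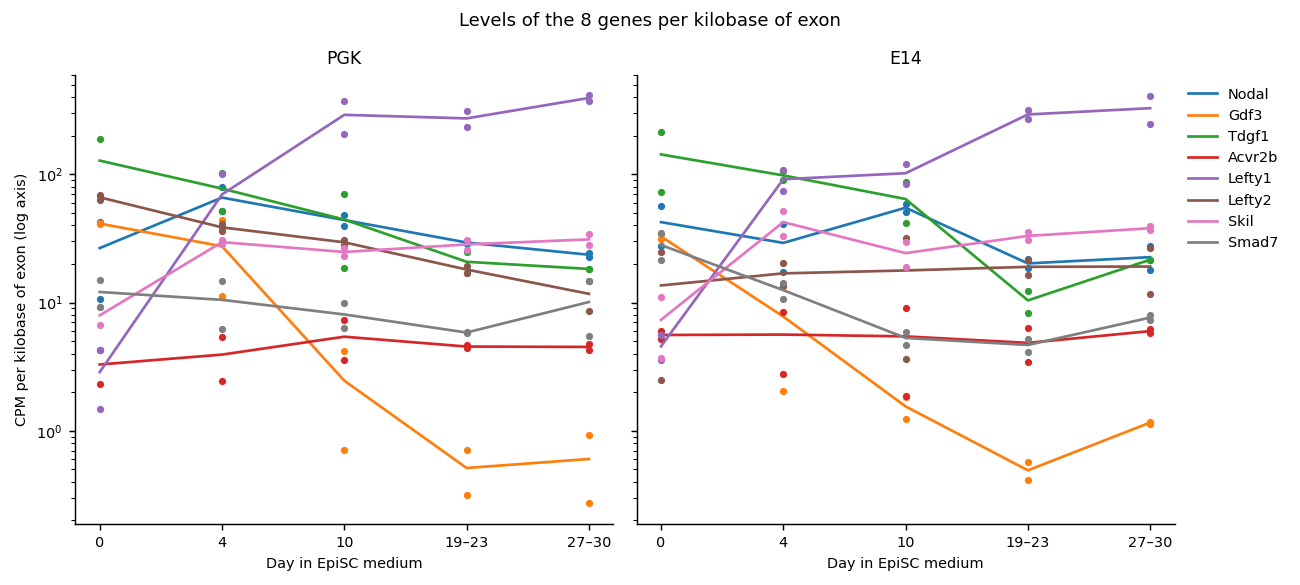
Levels per kilobase of exon on a log axis by day in EpiSC medium, with a point for each library and a line through the means of 2 libraries, PGK in the left panel and E14 in the right. Lefty1 is first at days 27 to 30 (394 RPKM in PGK, 328 RPKM in E14) and has the lowest mean at day 0 (2.87 RPKM in PGK, 4.56 RPKM in E14), where it overlaps with Acvr2b, and Gdf3 is last at days 27 to 30.

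The balance of Nodal and its secreted inhibitors followed from these levels. The summed RPKM of Lefty1 and Lefty2 over the RPKM of Nodal was 6.62 and 1.59 in the PGK libraries of day 0, 1.79 and 1.42 at day 4, 5.97 and 8.36 at day 10, 8.8 and 11 at days 19 to 23, and 17 and 17.5 at days 27 to 30. In E14 this ratio was 1.02 and 0.141, 2.98 and 5.46, 1.72 and 2.59, 13.1 and 18.2, and 15.9 and 14.5. All 4 libraries of days 27 to 30 lay above all 4 of day 0. The ratio is of RNA levels per length, not of protein.

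Days 27 to 30 were also set against day 4. For days 27 to 30 over day 4, 3 of the 8 genes were called in PGK, against 2.74% of all genes: Lefty1 was higher, with a log2 fold change of 2.49 ± 0.53 (adjusted p = 0.0376), and Gdf3 with −5.51 ± 0.99 (adjusted p = 0.0195) and Lefty2 with −1.74 ± 0.27 (adjusted p = 0.0101) were lower. None of the 3 was called without the late diff3 library (adjusted p = 0.174 for Lefty1, 0.168 for Gdf3 and 0.0892 for Lefty2). Lefty1 was also lost without the late diff2 library (adjusted p = 0.0869) without day 4 diff3, where it was 1.96 (adjusted p = 0.0991), with no low-count filter (adjusted p = 0.156) or with the code term (adjusted p = 0.11), and it was 3.30 without day 4 diff2. Gdf3 was lost without the late diff2 library, where it was −6.65 (adjusted p = 0.0649), without day 4 diff2, where it was −4.27 (adjusted p = 0.0719), or with no low-count filter (adjusted p = 0.116), and it was −6.17 without day 4 diff3. In E14 the same comparison called 0 of 8 in edgeR, against 0.565% of all genes. DESeq2 called 3 of the 8 (Gdf3, Tdgf1 and Lefty1) and 511 genes in all, where edgeR called 82. The same 3 had an unadjusted p under 0.05 in edgeR, against 8.84% of all genes. The E14 log2 fold changes were 1.81 ± 0.39 for Lefty1 (adjusted p = 0.09), −2.82 ± 0.80 for Gdf3 (adjusted p = 0.218) and −2.22 ± 0.52 for Tdgf1 (adjusted p = 0.123). With the replicate block Tdgf1 passed, at −2.19 (adjusted p = 0.0475). With no low-count filter Tdgf1 (adjusted p = 0.0116) and Lefty1 (adjusted p = 0.0103) passed in E14, and without both shallow libraries Gdf3 did, at −3.58 (adjusted p = 0.0201). In PGK, Tdgf1 was at −2.09 ± 0.62 (adjusted p = 0.107) and Nodal at −1.50 ± 0.50 (adjusted p = 0.15) in edgeR. DESeq2 called 5 of the 8 in PGK, namely Nodal, Gdf3, Tdgf1, Lefty1 and Lefty2, and 1500 genes in all, where edgeR called 419. Tdgf1 also passed with the code term. Whether these changes differ between the lines was not tested.

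Step by step after day 4, edgeR called none of the 8 genes in either line. For day 10 over day 4 in PGK, 1.51% of all genes were called. Of the 8, 2 had an unadjusted p under 0.05, against 12.3% of all genes. DESeq2 called 2 of the 8, Gdf3 and Lefty1, and 825 genes in all, where edgeR called 231. Gdf3 was at −3.55 ± 0.90 (adjusted p = 0.0967), and it passed with the replicate block at −3.62 (adjusted p = 0.00688) and without day 4 diff3 at −4.22 (adjusted p = 0.0461), while Lefty1 was at 2.05 ± 0.52 (adjusted p = 0.0976). For day 10 over day 4 in E14, 0.186% of all genes were called. Of the 8, 2 had an unadjusted p under 0.05, against 8.62% of all genes. DESeq2 called 2 of the 8, Gdf3 and Smad7, and 499 genes in all, where edgeR called 27. Without both shallow libraries Gdf3 was called there. For days 19 to 23 over day 10, 0% of all genes were called in either line. In PGK, 2 of the 8 had an unadjusted p under 0.05, against 1.36% of all genes, and DESeq2 called 0. In E14 it was 3 of the 8, against 6.47% of all genes. DESeq2 called Tdgf1 and Lefty1 there, and 261 genes in all. For days 27 to 30 over days 19 to 23, 0% of all genes were called in either line. In PGK, 1 of the 8 had an unadjusted p under 0.05 (Lefty2), against 1.51% of all genes. In E14 it was 0, against 0.731% of all genes, and DESeq2 called 0 of the 8 in both. No step after day 4 thus passed the threshold in edgeR for any of the 8 genes, which does not show that the levels were equal.

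Set against each other at the same stage, PGK and E14 gave no call for any of the 8 genes in edgeR. At day 0, 0.509% of all genes were called. Of the 8, 2 had an unadjusted p under 0.05, against 12.3% of all genes, and DESeq2 called 0. Lefty2 was at 180 and 166 CPM in PGK, against 64.6 and 6.52 CPM in E14, a log2 fold change of 2.28 ± 0.85 (adjusted p = 0.276), and Smad7 at 42 and 67.8 CPM in PGK, against 97 and 157 CPM in E14, one of −1.13 ± 0.47 (adjusted p = 0.338). Without E14 day 0 diff2, which leaves the shallow library alone in its group, the Lefty2 difference was 4.86. In that fit far more of all genes were called than in the main fit. Without E14 day 0 diff3, the Lefty2 difference was 1.46 (adjusted p = 0.832). At day 4, 0.165% of all genes were called. Of the 8, 1 had an unadjusted p under 0.05 (Nodal, with 1.15 ± 0.52 and adjusted p = 0.719), against 6.7% of all genes, and DESeq2 called 0. At day 10, 0.0636% were called, 1 of the 8 had an unadjusted p under 0.05, against 3.68% of all genes, and DESeq2 called 0. That gene was Lefty1, with 366 and 659 CPM in PGK, against 147 and 212 CPM in E14, and a log2 fold change of 1.49 ± 0.48 (adjusted p = 0.841). At days 19 to 23 and at days 27 to 30, 0.0636% and 0.0572% of all genes were called, and 0 of the 8 in edgeR, by an unadjusted p under 0.05 or by DESeq2.

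The change from day 0 was also compared between the lines with an interaction term, and none of the 8 genes was called. For day 4 over day 0, 0.0763% of all genes were called. Of the 8, 1 had an unadjusted p under 0.05, against 7.41% of all genes, and DESeq2 called 0. Nodal changed by 1.73 ± 0.74 more in PGK than in E14 on the log2 scale (adjusted p = 0.61), and the differences were 0.12 ± 0.71 for Lefty1 and −0.67 ± 0.55 for Skil. For days 27 to 30 over day 0, 0.0509% of all genes were called. Of the 8, 2 had an unadjusted p under 0.05, against 6.39% of all genes, and DESeq2 called 0. Lefty2 differed by −2.97 ± 1.17 (adjusted p = 0.694) and Smad7 by 1.57 ± 0.66 (adjusted p = 0.744). Without E14 day 0 diff2, which leaves the shallow library alone in its group, the day 4 difference was −1.74 for Skil. The late differences were then −5.55 for Lefty2 and −1.49 for Skil. In that fit far more of all genes were called than in the main fit. Thus the falls of Lefty2 in PGK alone and of Smad7 in E14 alone are not shown to differ between the lines.

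A list of 33 other genes of the pathway, chosen with earlier results of these data known, shows what surrounded the 8. At day 4 in PGK, 7 of the 33 were higher and 4 lower than at day 0, and at days 27 to 30, 10 were higher and 1 lower, where 14.8% and 25.1% of all genes were called. In E14, where 32 could be tested, 2 were called at day 4, both lower, and 9 were higher and 1 lower at days 27 to 30, where 9.56% and 13.7% of all genes were called. By role, 4 of the 5 listed target genes, Foxa2, Lhx1, Eomes and Mixl1, were higher at days 27 to 30 in each line. So were 2 of the 4 other antagonists that act outside the cell or at its surface, Cer1 and Bambi. Among 4 listed ligands, Tgfb1 was higher at days 27 to 30 in PGK (log2 3.74 ± 0.61, adjusted p = 0.00168) and in E14 (log2 4.11 ± 0.91, adjusted p = 0.0154), and in PGK it was higher and Inhbb lower at day 4. Among 5 Smads and partners, Smad3 was lower in PGK at day 4 (log2 −1.09 ± 0.30, adjusted p = 0.0334) and Smad4 higher in PGK at days 27 to 30 (log2 0.67 ± 0.21, adjusted p = 0.0407). Among 9 other intracellular inhibitors, Pmepa1 was higher in PGK (log2 1.42 ± 0.42, adjusted p = 0.0327) and Trim33 in E14 (log2 1.19 ± 0.33, adjusted p = 0.0393), both at days 27 to 30. Both listed convertases, Pcsk6 and Furin, were lower in PGK at day 4. Among 4 receptors and co-receptors, 1 was called at days 27 to 30 in each line, Cfc1 (Cryptic), the other EGF-CFC co-receptor. Cer1 and Lhx1 are also among the anterior visceral endoderm markers, Foxa2 and Gsc among those of definitive endoderm, and Eomes and Mixl1 among those of primitive streak and mesoderm.

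Pcsk6 (Pace4), a proprotein convertase that cleaves Nodal precursor, fell in both lines. In PGK, Pcsk6 had 181 and 213 CPM at day 0, 47.8 and 25.2 CPM on day 4, and 7.46 and 4.29 CPM at days 27 to 30, with log2 fold changes over day 0 of −2.50 ± 0.36 (adjusted p = 0.00134) and −5.15 ± 0.41 (adjusted p = 3.83e-05). In E14, Pcsk6 had 215 and 532 CPM at day 0, 21.9 and 20.8 CPM on day 4, and 7.88 and 7.12 CPM at days 27 to 30, with −4.07 ± 0.71 (adjusted p = 0.00628) and −5.61 ± 0.76 (adjusted p = 0.00124). No later library overlapped with a day 0 library. The E14 day 4 call was lost without either day 4 library and without both shallow libraries (adjusted p up to 0.105).

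Cer1 (Cerberus-like), a secreted antagonist of Nodal and other ligands, was among the 5 listed genes with the smallest adjusted p at days 27 to 30 in both lines. It had 347 and 316 CPM in PGK, where day 0 held 2 counts, a ratio of 5601 with an exact 95% interval of 1550 to 46254 (adjusted p = 0.000466). In E14 it had 592 and 364 CPM, against 0.224 and 0.296 CPM at day 0, with log2 10.88 ± 1.29 (adjusted p = 0.000687). Foxa2, a forkhead factor of endoderm and node, had 60.8 and 54.4 CPM in PGK, against 0.812 and 0.281 CPM at day 0 (log2 6.75 ± 0.94, adjusted p = 0.000741), and 64.8 and 67.4 CPM in E14, against 0.373 and 0.592 CPM (log2 7.19 ± 0.90, adjusted p = 0.000829). Cfc1 had 39.7 and 26 CPM in PGK, against 0.974 and 0.842 CPM at day 0 (log2 5.10 ± 0.58, adjusted p = 0.000223), and 42.3 and 29.6 CPM in E14, against 0.597 and 0 CPM (log2 6.39 ± 1.35, adjusted p = 0.0125). Without E14 day 0 diff2 the Cfc1 value was 12.20, set by a day 0 library with no count, and without day 0 diff3 it was 5.85. Lhx1, a LIM homeobox factor, had 274 and 116 CPM in E14, against 0.522 and 1.18 CPM at day 0 (log2 8.06 ± 1.03, adjusted p = 0.000941). In PGK, Lhx1 had 212 and 260 CPM, where day 0 held 3 counts, a ratio of 2636 with an exact 95% interval of 902 to 12786 (adjusted p = 0.00105). The PGK call of Lhx1 was lost without either day 0 library (adjusted p up to 0.0526), and the other late calls of these genes held under every alternative run.

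At day 4 Pcsk6 was called in both lines. The other listed genes with the smallest adjusted p in PGK were Fst (follistatin), which binds activin, with 86.5 and 231 CPM, against 4.3 and 16.3 CPM at day 0 (log2 3.87 ± 0.73, adjusted p = 0.00578), Foxa2 with 3.72 and 21.7 CPM (log2 4.61 ± 0.90, adjusted p = 0.00718), and Eomes, a T-box factor of the streak, with 57.9 and 196 CPM, against 3.41 and 15.8 CPM (log2 3.64 ± 0.76, adjusted p = 0.0101). Lhx1 had 1.26 and 37 CPM, where day 0 held 3 counts, a ratio of 258 with an exact 95% interval of 87.8 to 1252 that covers counting error only (adjusted p = 0.0116). Without the day 4 diff3 library the PGK log2 fold changes were 3.66 for Lhx1, 2.99 for Fst, 2.83 for Foxa2 and 2.50 for Eomes, and over the single libraries left out they reached 8.58 for Lhx1, 5.19 for Fst, 5.43 for Foxa2 and 5.21 for Eomes. Each was lost with no filter on low counts, and the highest adjusted p over the alternatives was 0.0607 for Fst, 0.0816 for Foxa2, 0.0909 for Eomes and 0.18 for Lhx1. Foxa2 was lost also without PGK day 0 diff3, Lhx1 without either PGK day 0 library, and Eomes also without PGK day 0 diff2 or day 4 diff3. In E14, Gsc (goosecoid) had 0.147 and 0.99 CPM at day 4, against 8.73 and 16 CPM at day 0 (log2 −5.07 ± 1.04, adjusted p = 0.0133), a call lost without day 4 diff2 (adjusted p = 0.105), and the value spanned −6.26 to −3.58 over the libraries left out. In E14, Fst had 33.9 and 33.7 CPM at day 4, against 14.2 and 110 CPM at day 0, and Eomes 13.1 and 3.46 CPM, against 5.59 and 16.9 CPM. For the day 4 change the interaction term in edgeR called 0 of the 33 genes. Of these, 6 had an unadjusted p under 0.05, against 7.41% of all genes. DESeq2 called 1, Fst, and 198 genes in all, where edgeR called 12. In edgeR the change of Fst was greater in PGK than in E14 by 4.71 ± 1.36 on the log2 scale (adjusted p = 0.309).

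The closest profiles to each gene were sought among 14509 named genes over the 10 group means, by the root mean square difference of centred log2 CPM. Nodal was nearest to Crip2, Ptk7 and Dffb, with differences of 0.20, 0.23 and 0.24, against a median of 0.87 over all genes. Lefty1 was nearest to Leprel1, Antxr2 and Rem2, with 0.43, 0.44 and 0.44, against a median of 2.43. Gdf3 was nearest to Zfp534 (0.63), Tdgf1 to D5Ertd605e (0.46), Acvr2b to Srp54c (0.11), Lefty2 to Sfxn2 (0.37), Skil to Syngr3 (0.21) and Smad7 to Tiam1 (0.24). No nearest gene of any of the 8 was a listed pathway gene, but the list holds only 33 genes, so this says little. Among the 8 themselves the closest pair was Nodal and Acvr2b, with 0.66, and the farthest Gdf3 and Lefty1, with 4.73. These are descriptions over groups that share libraries, and a gene that changes little is near many others.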

How the data were processed

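Stranded mRNA-seq of 20 libraries was used as raw counts per gene, which the authors deposited in a table for each line with 23361 entries. Per the submitters' processing notes the tools and builds named are CASAVA 1.8.2, Cuffdiff, DESeq2 and GRCm38 (mm10); for the aligner, the annotation and whether strand was used in counting, the answer is not given in the sources used here. The tables hold 27 date-like names, as a spreadsheet makes of gene symbols, and 2 repeated names, none a gene reported here. The authors' normalized and variance-stabilized tables were not used.

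Genes were filtered with filterByExpr (minimum count 10), scaled by TMM and tested with edgeR 4.0.16 (R 4.3.3), with robust quasi-likelihood fits and Benjamini-Hochberg adjustment over all genes tested. Fits within a line used 10 libraries (15284 genes in PGK, 14501 in E14), and comparisons of lines used all 20 (15732 genes). A call is an adjusted p under 0.05, and SE was taken from the F statistic. CPM is the count of a gene scaled to the library total. Intervals are at 95% and cover counting error only. The scripts were tested on simulated data.

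The 8 genes and all other lists were chosen with earlier results of these data known. All 8 are reported. Of the other pathway genes, the 5 at most with the smallest adjusted p per line at day 4 and at days 27 to 30 over day 0 were checked in the alternatives. The same rule covered any called between lines. Other called pathway genes are named by role, some with edgeR values, and results of the alternatives are not given for them. Another gene of the pathway list is left out of the list and its counts and is not reported here. The experiment names diff2 and diff3 in the labels pair libraries across stages of a line. As a check, the differences between experiments correlated at −0.22 to 0.45 over 20 pairs of stages, above 0.1 in 6. These 6 were the pairs among days 0, 4 and 10, with 0.38 to 0.45 in PGK and 0.15 to 0.22 in E14. At those stages only the diff2 titles hold the code, so experiment and code cannot be told apart there. The main fits did not use the pairing. Alternatives were RLE size factors, no low-count filter, DESeq2 1.42.0, the replicate block, a term for the code in 6 titles, each library left out, and both shallow libraries left out.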

Additional observations from a re-analysis of the deposited data

Results flagged for a closer look

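The log2 ratio of Lefty2 at days 27 to 30 over day 0 was negative in both experiments of PGK and above 0 in both of E14, though close to 0 in E14 diff2. Lefty2 had 38.3 and 22.6 CPM at days 27 to 30 in PGK, against 180 and 166 CPM at day 0, and 69.3 and 30.4 CPM in E14, against 64.6 and 6.52 CPM at day 0. The log2 ratio was −2.23 in diff2 and −2.88 in diff3 of PGK, and 0.10 in diff2 and 2.22 in diff3 of E14. The test of the difference itself gave −2.97 ± 1.17 (SE) for PGK minus E14, with an unadjusted p of 0.0219 and an edgeR adjusted p of 0.694, so it did not pass. The E14 day 0 diff3 library behind the value of 2.22 is the shallow one, with 22 counts of Lefty2. The fitted E14 value was 0.43 ± 1.03 (adjusted p = 0.818) and −0.40 without both shallow libraries, so a rise in E14 is not shown.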

How the results depend on the processing

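The count of the 8 genes called stayed within 1.5 times the reported count in 163 of the alternatives and moved further in 24. A reported count of 0 that stayed at 0 is among the 163, so this is no measure of stability over all genes. With DESeq2 the count of the 8 genes called was 2 for PGK day 10 over day 4, 5 for PGK days 27 to 30 over day 4, and in E14 4 for day 4 over day 0, 2 for day 10 over day 4, 2 for days 19 to 23 over day 10 and 3 for days 27 to 30 over day 4. In each of these comparisons DESeq2 also called more of all genes than edgeR, for E14 day 4 over day 0 2817 against 1386. With no low-count filter it was 1 for PGK days 27 to 30 over day 4, 1 for E14 days 19 to 23 over day 10 and 2 for E14 days 27 to 30 over day 4. With the replicate block, which follows the pairing by experiment, it was 1 for PGK day 10 over day 4 and 1 for E14 days 27 to 30 over day 4, and with the code term 2 for PGK day 10 over day 4. The block turned Acvr2b in E14 at day 4 to −0.19 and the code term to −0.27. Beside the Lefty2, Gdf3 and Tdgf1 calls given with the results, the block's effect on other genes is in these counts.

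Leaving out both shallow libraries, chosen after seeing the data, gave 1 gene for E14 day 4 over day 0, 1 for day 10 over day 4 and 1 for days 27 to 30 over day 4. It turned the E14 day 4 values to 0.57 for Nodal and −0.89 for Lefty2, and the late E14 value of Lefty2 to −0.40. It turned the PGK minus E14 differences of the day 4 change to 0.26 for Tdgf1, −0.46 for Acvr2b, −0.40 for Lefty1, 0.10 for Lefty2 and 0.29 for Skil, and of the late change to 0.50 for Tdgf1 and 0.17 for Skil. The cause was not tested.

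Leaving out single libraries moved the counts over 0 to 1 (PGK day 10 over day 4), 0 to 2 (PGK days 27 to 30 over day 4), 1 to 3 (E14 day 4 over day 0), 1 to 5 (E14 days 27 to 30 over day 0), 0 to 2 (PGK over E14 at day 0), and 0 to 1 and 0 to 2 for the differences of change at day 4 and late. For PGK day 4 over day 0 the log2 fold change spanned −1.88 to 0.03 for Gdf3, −1.32 to 0.12 for Tdgf1, −0.43 to 0.70 for Acvr2b and −0.96 to 0.23 for Smad7, and for PGK days 27 to 30 over day 0 −0.94 to 1.08 for Nodal and −1.24 to 0.21 for Smad7. For E14 day 4 over day 0 it spanned −1.24 to 0.07 for Nodal, −1.14 to 0.51 for Tdgf1, −0.98 to 0.64 for Acvr2b and −0.59 to 2.84 for Lefty2, and for E14 days 27 to 30 over day 0 −0.42 to 2.99 for Lefty2. The difference of the day 4 change spanned −1.28 to 0.67 for Tdgf1, −0.53 to 1.19 for Acvr2b and −0.74 to 1.09 for Lefty1, and of the late change −0.04 to 1.97 for Nodal, −1.14 to 0.80 for Tdgf1, −0.09 to 0.80 for Acvr2b and −1.49 to 0.16 for Skil.

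Over all genes, the calls for day 4 over day 0 were 2260 in PGK (1366 to 3698 over the alternatives) and 1386 in E14 (474 to 4517), and for days 27 to 30 over day 0 3833 in PGK (2208 to 5078) and 1990 in E14 (645 to 4941). For day 10 over day 4 they were 231 in PGK (52 to 825) and 27 in E14 (0 to 499), and for days 27 to 30 over day 4 419 in PGK (99 to 1500) and 82 in E14 (0 to 511). PGK over E14 at day 0 gave 80 (24 to 3317), and the differences of change 12 (1 to 2345) at day 4 and 8 (1 to 2286) late, the highest each time without E14 day 0 diff2. With 2 libraries a group, 5 residual degrees of freedom within a line limit the precision.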
